A study of Caenorhabditis elegans with 12 samples.

Results

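Trehalose synthesis and breakdown was followed through 8 genes of Caenorhabditis elegans, namely the trehalose-6-phosphate synthases tps-1 and tps-2, the trehalose-6-phosphate phosphatase gob-1 and the trehalases tre-1, tre-2, tre-3, tre-4 and tre-5. The members were chosen by function and found by their symbol in the authors' sheet for daf-2 RNAi, which gives 8 of the 44968 gene entries counted. All 8 passed the filter on low counts. Messenger RNA had been sequenced from whole first-stage (L1) larvae that hatched without food and stayed arrested; they were frozen about 24 h after bleaching. Their parents had fed for 72 h on HT115 bacteria with an empty vector, with daf-2 RNAi or with pitr-1 RNAi, and each of these 3 groups held 4 libraries. Larvae of all 3 groups carried hrde-1(tm1200), a mutation in a nuclear Argonaute needed for inherited silencing in the germline, so no group represents the wild type. The RNAi was given to the parents. daf-2 encodes the insulin/IGF receptor, and pitr-1 a predicted phosphate transporter.

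Trehalose is a sugar made of a pair of linked glucose units, and nematodes store it as an energy source and as a protectant against drying, freezing and osmotic stress. A synthase joins UDP-glucose to glucose-6-phosphate, the phosphatase removes the phosphate to release trehalose, and trehalases split trehalose back into glucose. Arrested L1 larvae and dauer larvae live on stored material, and trehalose synthesis in C. elegans is known to be promoted when insulin-like signalling is low.

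The libraries held between 5907286 and 11490429 gene counts each, and ribosomal RNA took 16.1% to 47.1% of them. CPM below means counts scaled to the library size after TMM normalization, and log2 fold changes are positive where the first group named is higher. In the larvae, daf-2 transcripts of replicates 1 to 4 stood at 85.3, 67.2, 46.6 and 62.2 CPM with empty vector and at 21.9, 61.1, 43.5 and 63.5 CPM with daf-2 RNAi. The gene targeted in the parents was not called in their larvae, at a log2 fold change of -0.46 (adjusted p = 1.00, edgeR quasi-likelihood test), with the lowest value in replicate 1. After pitr-1 RNAi daf-2 stood at 49.5 ± 14.4 CPM, against 47.5 ± 19.3 CPM after daf-2 RNAi and 65.3 ± 15.95 CPM in empty vector (SD, n = 4 each), a log2 fold change of -0.40 (adjusted p = 1.00, edgeR). For pitr-1 the level was 217 ± 28.6 CPM in empty vector and 212 ± 73.5 CPM after pitr-1 RNAi (SD, n = 4 each). The summed level of 14 germline and maternal transcripts ran from 42.7 to 102 CPM in empty vector, 63.8 to 265 CPM in daf-2 RNAi and 57.6 to 268 CPM in pitr-1 RNAi. All 14 lay above 0 in log2 fold change in both RNAi groups, with none called, and daf-2 RNAi replicates 2 and 3 and pitr-1 RNAi replicate 3 held the most pos-1. The adult collagen gene col-19 stayed between 0 and 2.18 CPM in every library.

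All 8 genes were transcribed in every library, and their levels differed more between genes than between RNAi groups. Per kilobase of annotated exon, tre-1 was the highest at 25.3 ± 2.21 CPM per kb (SD, n = 12), followed by tre-3 at 21.9 ± 5.23 and gob-1 at 18.1 ± 2.64 CPM per kb. The synthases came next, at 16.6 ± 2.39 CPM per kb for tps-2 and 16.2 ± 2.17 CPM per kb for tps-1. Below them lay tre-5 at 12.8 ± 3.77, tre-2 at 9.46 ± 0.966 and tre-4 at 3.69 ± 1.37 CPM per kb. Most neighbours in this order changed places between libraries: tre-1 was above tre-3 in 9 of 12 libraries, tre-3 above gob-1 in 8, gob-1 above tps-2 in 8 and tps-2 above tps-1 in 7. The step from tps-1 to tre-5 held in 10 of 12 libraries and that from tre-5 to tre-2 in 9. Only the last step, from tre-2 to tre-4, held in 12 of 12. Exon lengths came from an annotation that may not be the one the authors counted with.

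In the Ensembl 115 annotation all 8 are protein-coding. tps-1, gob-1 and tre-4 lie on chromosome X, tps-2 and tre-5 on II, tre-1 on I, tre-2 on IV and tre-3 on V. The library kit does not mark strand, so reads of overlapping genes cannot be told apart by strand. tps-2 shares exon bases with arl-3 on the same strand, which was counted at 7.45 to 19.4 CPM. tre-4 shares exon bases with efn-3 on the opposite strand, counted at 0 to 0.718 CPM. The overlaps of tre-2, tre-3 and tre-5 with other genes lie outside shared exons, and tps-1, gob-1 and tre-1 overlap none.

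The synthases carry out the first step, and neither was called in any comparison. tps-1 stood at 64.8, 71.1, 61.7 and 69.6 CPM in empty vector replicates 1 to 4. In daf-2 RNAi it stood at 74.9, 83.3, 70.2 and 72.0 CPM, above the empty vector library of the same number in 4 of 4 pairs, as were 8.63% of all genes tested. In pitr-1 RNAi it ran from 50.9 CPM in replicate 3 to 87.9 CPM in replicate 1, and spanned both other groups. The fitted log2 fold change of tps-1 was 0.17 ± 0.18 (SE) for daf-2 RNAi, with a 95% interval in fold from 0.862 to 1.46, and 0.07 ± 0.18 for pitr-1 RNAi.

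tps-2 stood at 68.8, 77.7, 61.0 and 59.2 CPM in empty vector, at 49.3, 69.4, 67.7 and 73.1 CPM in daf-2 RNAi and at 51.3, 72.8, 54.5 and 60.5 CPM in pitr-1 RNAi libraries. Replicate 1 was the lowest library of both RNAi groups but not of empty vector, and the groups overlapped. Its log2 fold change was -0.04 ± 0.19 for daf-2 RNAi, with a fold interval from 0.739 to 1.28, and -0.16 ± 0.19 for pitr-1 RNAi.

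gob-1, whose loss in C. elegans obstructs the gut of young larvae as trehalose-6-phosphate builds up, was at 35.7 ± 5.08 CPM in empty vector, 36.1 ± 3.13 CPM in daf-2 RNAi and 34.0 ± 7.62 CPM in pitr-1 RNAi (SD, n = 4 each). The pitr-1 RNAi libraries held both its lowest value, 23.6 CPM in replicate 1, and its highest, 41.5 CPM in replicate 2. Its log2 fold changes were 0.01 ± 0.20 and -0.07 ± 0.20 for daf-2 and pitr-1 RNAi, with fold intervals of 0.754 to 1.35 and 0.713 to 1.27.

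**Figure D1:**
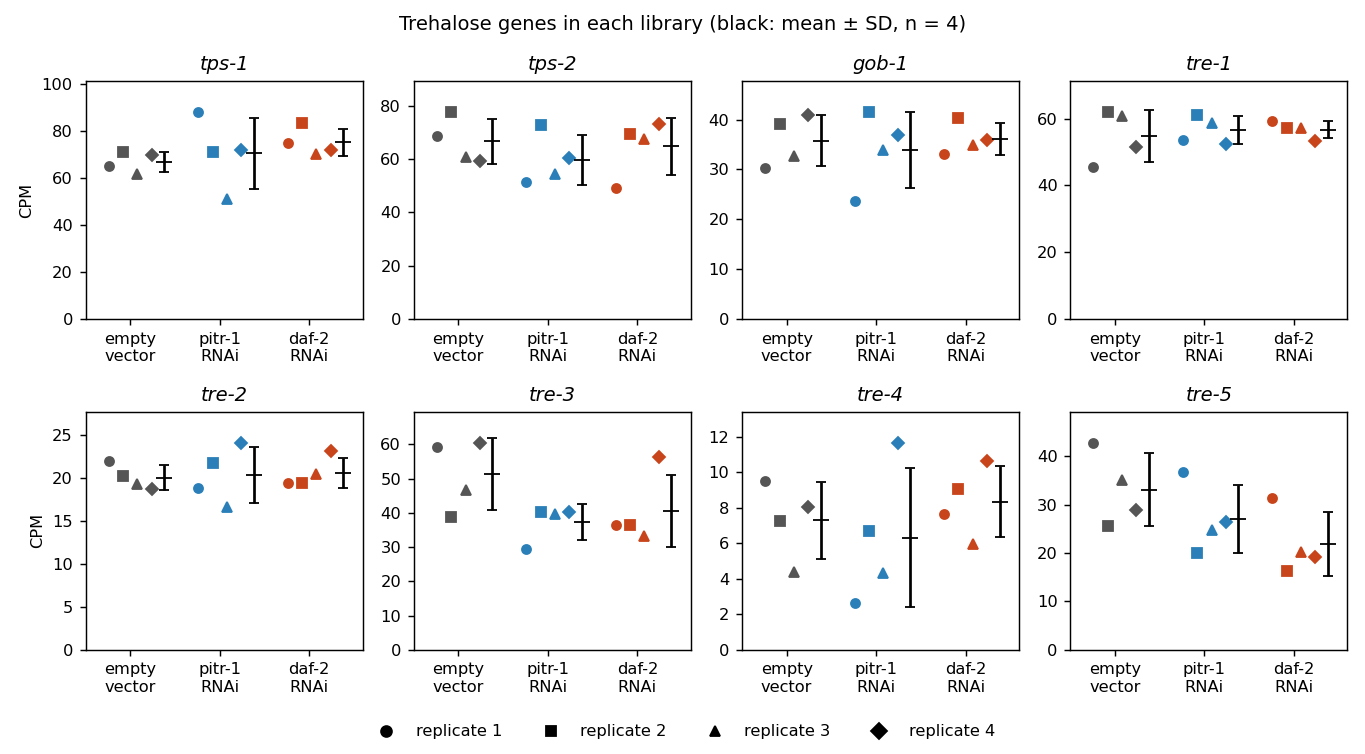
Level of each of the 8 trehalose genes in every library, in CPM on a linear axis from 0. Points are libraries with 1 symbol per replicate number, and the black bar beside them is the mean ± SD of 4 libraries. The 3 groups overlap for every gene, and tre-5 ranges from 16.2 to 42.7 CPM.

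Among the trehalases, tre-5 and tre-3 were the ones with the largest differences from empty vector in the daf-2 RNAi comparison. tre-5 stood at 42.7, 25.6, 35.0 and 28.8 CPM in empty vector replicates 1 to 4, at 31.4, 16.2, 20.3 and 19.2 CPM in daf-2 RNAi and at 36.6, 20.02, 24.7 and 26.5 CPM in pitr-1 RNAi. The groups overlapped, because replicate 1 was the highest library in each group and replicate 2 the lowest in each. Within every replicate number the order was the same, with empty vector highest, pitr-1 RNAi between and daf-2 RNAi lowest. That order in all 4 numbers was found for 32 of 14664 genes (0.218%) and the reverse order for 50 (0.341%), and the empty vector values enter both differences. The order counted is the one seen in tre-5, so its share is no test of tre-5.

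For daf-2 RNAi against empty vector, the log2 fold change of tre-5 was -0.60 ± 0.26 (95% interval -1.15 to -0.05), a fold of 0.660. Its p was 0.0336 before adjustment and 1.00 after it over 14664 genes in edgeR, which placed it at rank 380. With the replicate number as a block the log2 fold change was -0.62 ± 0.14, with an adjusted p of 0.0908 in edgeR, at rank 93, so tre-5 did not pass the threshold of 0.05 in either fit. DESeq2 with the same block, an analysis added after seeing the data, gave -0.63 with an adjusted p of 0.00515, and DESeq2 without it gave an adjusted p of 0.949. The blocked edgeR fit without replicate 1 gave -0.69 and an adjusted p of 0.0302, against 0.636, 0.503 and 0.482 without replicates 2, 3 and 4. These blocked fits with a replicate left out were likewise not planned. No alternative fit called more than 181 genes for this comparison. For pitr-1 RNAi the log2 fold change was -0.30 ± 0.26, or -0.30 ± 0.14 with the block (adjusted p = 0.999, edgeR). Between daf-2 and pitr-1 RNAi it was -0.30 ± 0.26.

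Intestinal markers were read beside tre-5. The summed level of 10 intestinal marker genes was 3674 to 4185 CPM in empty vector. It was 2420 to 4677 CPM in daf-2 RNAi and 2811 to 3468 CPM in pitr-1 RNAi. The gene asp-1 made up most of the mean sum in each group. It stood at 2409 ± 178, 2171 ± 732 and 1924 ± 223 CPM in the same order (SD, n = 4 each). In log2 fold change, 1 of 10 lay above 0 after daf-2 RNAi and 3 of 10 after pitr-1 RNAi. After daf-2 RNAi, 1 of 5 pharynx, 2 of 7 neuron, 5 of 6 body wall muscle and 4 of 5 epidermis markers lay above 0. With the block 1 of the 10 intestinal markers was called for daf-2 RNAi, against 0.314% of all genes. It was the peptide transporter gene pept-1, at -0.75 (adjusted p = 0.0394, edgeR). Without the block pept-1 was at -0.76 (adjusted p = 0.698, edgeR) and 0 of the 10 were called. None of the 10 was at 0 in any group. In whole larvae, fewer cells of a type and less RNA per cell cannot be told apart, and the part of these markers in the tre-5 values was not tested. Without the 3 libraries of highest pos-1, the log2 fold change of tre-5 in daf-2 RNAi was -0.38, and -0.54 with the block. In replicates 2 and 4 alone it was -0.63 and in replicates 1 and 3 alone -0.58.

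tre-3 stood at 59.3, 38.7, 46.6 and 60.5 CPM in empty vector, at 36.4, 36.3, 33.3 and 56.2 CPM in daf-2 RNAi and at 29.6, 40.2, 39.6 and 40.4 CPM in pitr-1 RNAi. In daf-2 RNAi 3 libraries lay close together and replicate 4 apart from them, within the range of empty vector. In pitr-1 RNAi replicate 1 lay below the other 3, and it was the library with the fewest gene counts. The daf-2 RNAi library was below the empty vector library of its number in 4 of 4 pairs, as were 7.86% of all genes, and the differences within pairs ran from -0.70 to -0.09 on the log2 scale. The fitted log2 fold change was -0.34 ± 0.22 for daf-2 RNAi, with a fold interval from 0.574 to 1.09, and -0.45 ± 0.22 for pitr-1 RNAi, with a fold interval from 0.530 to 1.01. For daf-2 RNAi the value was -0.53 without daf-2 RNAi replicate 4, -0.11 in replicates 2 and 4 alone, -0.59 in replicates 1 and 3 alone and -0.14 with the 3 libraries of highest pos-1 left out. With the block the value for pitr-1 RNAi was -0.43 ± 0.17 (adjusted p = 0.999, edgeR), and -0.27 without replicate 1.

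**Figure D2:**
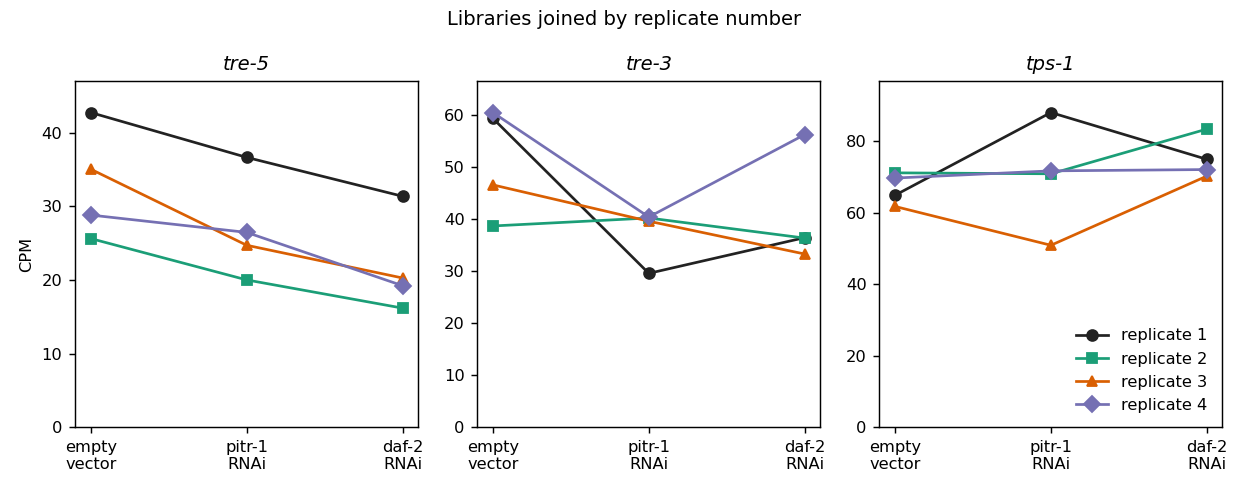
Levels of tre-5, tre-3 and tps-1 in CPM, with the 3 libraries of each replicate number joined by a line. The 4 lines of tre-5 all step down from empty vector to pitr-1 RNAi and on to daf-2 RNAi, whereas the lines of tre-3 and of tps-1 share no single order of the groups.

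tre-1, the highest trehalase per kilobase, was at 54.8 ± 7.83 CPM in empty vector, 56.7 ± 2.44 CPM in daf-2 RNAi and 56.4 ± 4.19 CPM in pitr-1 RNAi (SD, n = 4 each). tre-2 was at 20.01 ± 1.42, 20.6 ± 1.74 and 20.3 ± 3.24 CPM in the same order. These means differed by less than the spread within groups. For daf-2 RNAi the fold interval was 0.816 to 1.31 for tre-1 and 0.792 to 1.34 for tre-2.

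tre-4 was the least abundant trehalase, at 9.50, 7.25, 4.37 and 8.03 CPM in empty vector, 7.67, 9.06, 5.95 and 10.6 CPM in daf-2 RNAi and 2.62, 6.70, 4.31 and 11.6 CPM in pitr-1 RNAi. Its lowest value, in pitr-1 RNAi replicate 1, rested on 10 counts, in the library with the fewest gene counts. The fold intervals were the widest of the 8 genes, from 0.641 to 2.06 for daf-2 RNAi and from 0.496 to 1.61 for pitr-1 RNAi. For pitr-1 RNAi the log2 fold change of -0.16 was -0.95 in replicates 1 and 3 alone and 0.26 in replicates 2 and 4 alone.

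**Figure D3:**
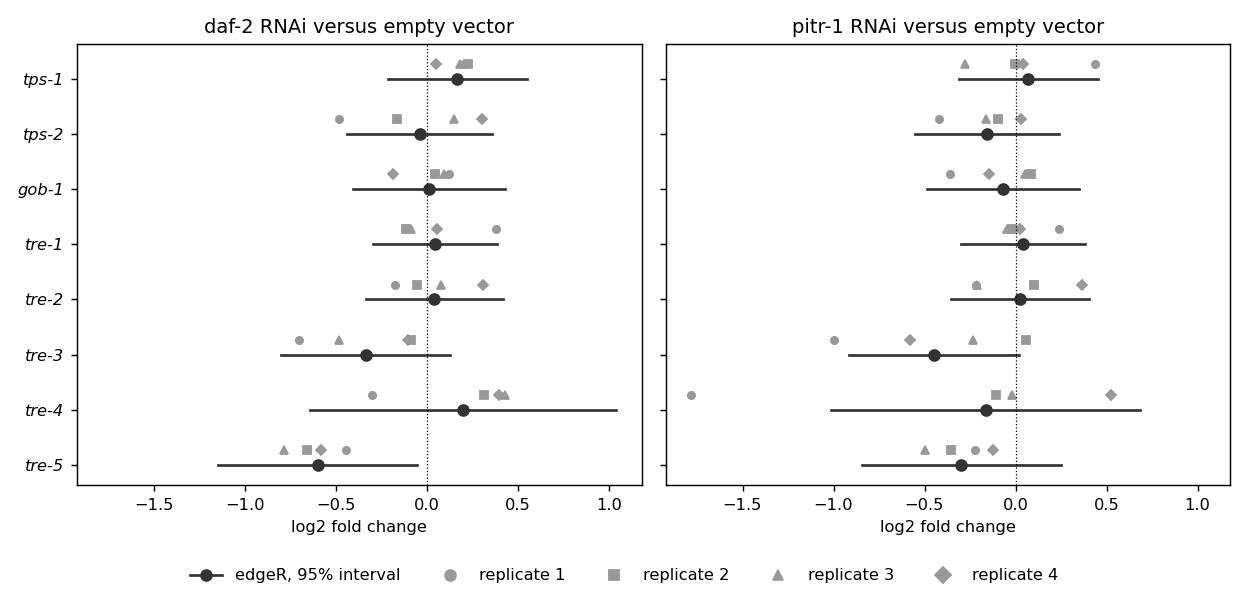
Log2 fold changes of the 8 genes for daf-2 RNAi (left) and pitr-1 RNAi (right) against empty vector, with the edgeR estimate and its 95% interval in black and the difference within each replicate number in grey. Only the interval of tre-5 in daf-2 RNAi leaves out 0, from -1.15 to -0.05, before adjustment over all genes.

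Over the 8 genes, none was called in any comparison at an adjusted p under 0.05 in edgeR. For daf-2 RNAi against empty vector this was 0 of 8 where 0.0341% of all genes were called, and 0 of 8 with the block where 0.314% were. At p under 0.05 before adjustment, 1 of 8 passed, tre-5, against 3.59% of all genes, and with the block again 1 of 8 against 8.23%. For pitr-1 RNAi it was 0 of 8 called against 0.00682% of all genes, with and without the block. Before adjustment 0 of 8 passed against 1.73%, and with the block 1 of 8, tre-3, against 3.65%. For daf-2 against pitr-1 RNAi it was 0 of 8 against 0.0136%, or 0.15% with the block, with 0 of 8 before adjustment against 2.23% and 1 of 8, tre-5, with the block against 4.73%. DESeq2 called 0 of 8 in each of the 3 comparisons, against 0.348%, 0.00682% and 0.15% of all genes in the same order. With the block DESeq2 called 1 of 8, tre-5, for daf-2 RNAi against 1.2% of all genes, and 0 of 8 in the other comparisons against 0.0546% and 0.605%. With backgrounds this low, a count of 0 among 8 genes does not set them apart from other genes.

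The signs were mixed, and since the 3 comparisons share libraries their values are only set side by side. For daf-2 RNAi 5 of the 8 log2 fold changes lay above 0 and 3 below, with a median of 0.03 against 0.00 over all genes. For pitr-1 RNAi 3 lay above and 5 below, with a median of -0.11 against 0.02. For daf-2 against pitr-1 RNAi 7 lay above and 1, tre-5, below, with a median of 0.09 against -0.02. In none of the 3 comparisons did the groups of any member separate without overlap in CPM, which 2.62%, 1.35% and 2.05% of all genes did for daf-2 RNAi against empty vector, pitr-1 RNAi against empty vector and daf-2 against pitr-1 RNAi.

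As a ratio of summed levels per kilobase, the synthases stood at 0.381 to 0.502 of the trehalases in empty vector, 0.411 to 0.567 in daf-2 RNAi and 0.379 to 0.503 in pitr-1 RNAi. The ratio was 0.414 ± 0.0587, 0.489 ± 0.0686 and 0.454 ± 0.0579 in the same order (SD, n = 4 each), and the ranges overlapped. tps-1 made up 44.6% to 60.2% of the summed synthase level over the 12 libraries.

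The authors' deposited tables come from an edgeR fit with a batch correction, per the notes in their workbook, whose variable is not stated there. In the authors' deposited table, tre-5 had a log2 fold change of -0.62 for daf-2 RNAi with a false discovery rate of 0.204, and tre-3 had -0.34 with 0.668. In the authors' deposited table for pitr-1 RNAi, tre-5 had -0.29 and tre-3 had -0.42, both with a false discovery rate of 0.999.

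The replicate number, which the labels give to biological replicates, was tested in the same way in a fit of RNAi group and replicate number. Of the 8 genes, 1 was called, tre-5, against 26.6% of all genes. Its mean over the 3 groups was 36.9 CPM in replicate 1, 20.6 CPM in replicate 2, 26.7 CPM in replicate 3 and 24.8 CPM in replicate 4, a fitted range of 0.86 on the log2 scale (adjusted p = 0.00795, edgeR). The call was lost without replicate 1 (adjusted p = 0.125), without replicate 2 (adjusted p = 0.106) and without the 3 libraries of highest pos-1 (adjusted p = 0.0696). tre-4 had the widest fitted range, 1.08, with means from 4.87 CPM in replicate 3 to 10.1 CPM in replicate 4, and was not called (adjusted p = 0.131) except without replicate 1 (adjusted p = 0.0121). The median range of the 8 genes was 0.40, against 0.78 over all genes. These were the 14664 genes tested, of which 9898 had at least 5 CPM, so levels were not matched. Replicates 1 and 3 differed from 2 and 4 in marker and mitochondrial levels. The 6 body wall muscle markers, all called by replicate number, summed to 2237 to 2837 CPM against 4121 to 5222 CPM. The 5 pharynx markers summed to 861 to 1233 CPM against 1602 to 2052 CPM, and the other marker sums overlapped. Mitochondrial genes took 2.67% to 5.51% of gene counts against 0.61% to 0.95%. The part of these differences in the 8 genes was not tested.

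For tre-5, the RNAi groups held 39.1% of the sum of squares of log2 CPM over the 12 libraries, the replicate numbers 58.0% and the rest 2.94%. The median over all genes was 9.73% for groups, 49.0% for numbers and 34.3% for the rest. For tre-3 the shares were 35.7%, 29.4% and 34.9%, and for gob-1 the replicate numbers held 72.9%. For tps-1, tps-2, tre-1 and tre-2 the groups held 1.43% to 13.5%.

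Several of the genes varied little between libraries. The SD of log2 CPM over all 12 libraries was 0.13 for tre-1, at percentile 1.01 of the 9898 genes of at least 5 CPM, and 0.15 for tre-2, at percentile 1.87. It was 0.20 for tps-1, 0.21 for tps-2 and 0.23 for gob-1, at percentiles 8.54, 10.8 and 13.4. tre-3 at 0.33 (percentile 37.4) and tre-5 at 0.42 (percentile 57.3) lay near the median of 0.38, and tre-4 at 0.60 (percentile 82.8) lay above it.

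**Figure D4:**
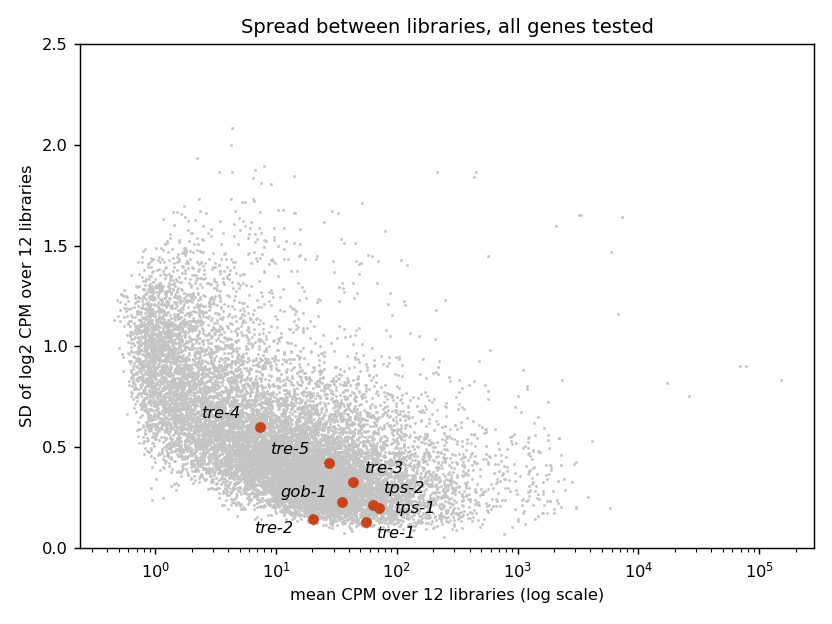
SD of log2 CPM over 12 libraries against mean CPM (log scale) for the 14664 genes tested (grey), with the 8 trehalose genes in orange. tre-1 and tre-2 lie at the lower edge of the cloud, and tre-4 at 0.60 is the most variable of the 8.

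The genes that supply and compete for the substrates of trehalose synthesis were taken from lists chosen with earlier results of these data known. Of 34 tested genes for sugar phosphate and UDP-glucose supply, glycogen, and gluconeogenesis with the glyoxylate shunt, none was called for either RNAi against empty vector in edgeR, with or without the block. Above 0 lay 25 of 34 in the daf-2 RNAi comparison (median log2 fold change 0.13) and 17 of 34 in the pitr-1 RNAi comparison (median 0.00). By role, 6 of 8 supply genes, 5 of 10 glycogen genes and 14 of 16 gluconeogenesis and glyoxylate genes lay above 0 for daf-2 RNAi. By replicate number, 5 of the 34 were called, against 26.6% of all genes.

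pgm-1, a phosphoglucomutase, an enzyme class that converts glucose-1-phosphate and glucose-6-phosphate into each other, showed the clearest separation of the supply genes named. It stood at 92.8, 48.6, 69.1 and 62.8 CPM in empty vector, 123, 100.3, 103 and 102 CPM in daf-2 RNAi and 59.2, 57.3, 67.8 and 63.8 CPM in pitr-1 RNAi. Each daf-2 RNAi library lay above each library of the other groups. Of all genes, 2.62% separated without overlap, in either direction, between daf-2 RNAi and empty vector, and 2.05% between daf-2 and pitr-1 RNAi. The log2 fold change for daf-2 RNAi was 0.65 ± 0.20 (adjusted p = 0.874, edgeR), or 0.68 ± 0.15 with the block (adjusted p = 0.0714), and for daf-2 against pitr-1 RNAi 0.79 ± 0.20, or 0.78 ± 0.15 with the block (adjusted p = 0.0588). These values missed the threshold in edgeR, as did DESeq2 without the block. Past it were DESeq2 with the block, at an adjusted p of 0.00418 against empty vector and 0.000806 against pitr-1 RNAi, and the blocked edgeR fit without replicate 1, at 0.00631 and 0.0137. Neither of these fits was planned. DESeq2 with the block called 1.2% and 0.605% of all genes in these comparisons. No alternative fit called more than 181 and 87 genes in them, in the same order.

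The other genes named from the supply list differed less: for daf-2 RNAi the log2 fold change was 0.05 ± 0.18 for rml-1, also listed as K08E3.5, and 0.24 ± 0.24 for pgm-3. Whether pgm-3 acts in this supply was not checked here. Glycogen synthase gsy-1, which draws on the same UDP-glucose, was at 71.6 ± 7.88 CPM in empty vector and 78.1 ± 10.2 CPM in daf-2 RNAi (SD, n = 4 each). The glycogenin genes, whose products prime glycogen, had log2 fold changes of -0.15 ± 0.19 for gyg-1 and 0.37 ± 0.37 for gyg-2. icl-1, the glyoxylate-shunt enzyme that lets nematodes make sugar from fat, ran from 19.6 to 140.5 CPM, with its highest value in pitr-1 RNAi replicate 3, and its log2 fold change for daf-2 RNAi was 0.22 ± 0.56. The phosphoenolpyruvate carboxykinase genes pck-1 and pck-2, which act early in gluconeogenesis, had 0.20 ± 0.21 and 0.29 ± 0.31.

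For scale, sod-3 and lea-1, known to respond to insulin-like signalling, had larger log2 fold changes for daf-2 RNAi than any of the 8 trehalose genes. sod-3, a mitochondrial superoxide dismutase, rose from 10.2 ± 1.79 CPM in empty vector to 29.5 ± 6.76 CPM in daf-2 RNAi, a log2 fold change of 1.52 ± 0.21 (adjusted p = 0.0167, edgeR). Its call was lost without any 1 of 7 of the 8 libraries compared, and without the 3 libraries of highest pos-1 (adjusted p = 0.230). lea-1, a late-embryogenesis-abundant protein of desiccation tolerance, was at 37.1 ± 9.19 CPM in empty vector and 104 ± 29.7 CPM in daf-2 RNAi (log2 fold change 1.48 ± 0.26, adjusted p = 0.123 in edgeR and 0.0187 with the block). daf-16, the transcription factor held back by insulin-like signalling, was at -0.10 ± 0.21.

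**Figure D5:**
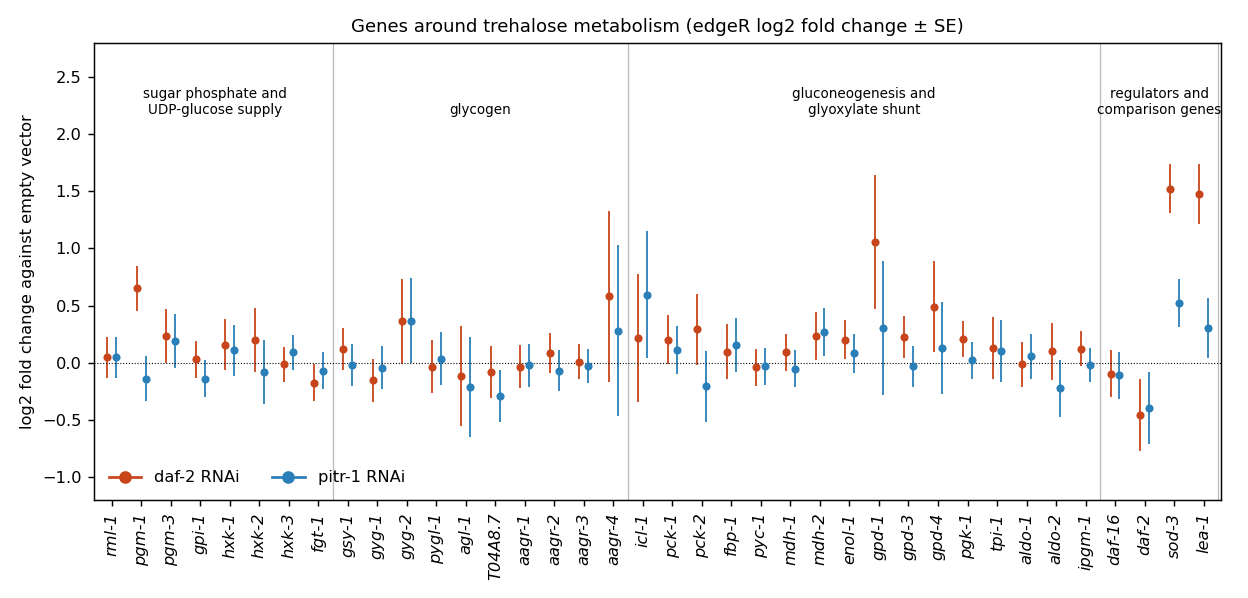
Log2 fold change ± SE against empty vector for the genes around trehalose metabolism, grouped by role, for daf-2 RNAi (orange) and pitr-1 RNAi (blue). sod-3 and lea-1, at the right, reach 1.52 and 1.48 in daf-2 RNAi, and pgm-1 reaches 0.65.

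The genes whose log2 CPM ran most like each member over the 12 libraries were sought among 9890 others of at least 5 CPM, as a description, since the libraries share their RNAi group and replicate number. gob-1 was matched by polq-1, a DNA polymerase of end joining, with Pearson r = 0.981 and Spearman rho = 0.951, and by F56D1.1 with r = 0.962. tre-5 was matched by zig-1 with r = 0.937 and by F58H1.7 with r = 0.935. For tps-2 these were kle-2, a condensin subunit, with r = 0.936, and lin-41, a heterochronic regulator, with r = 0.913, and for tps-1 suco-1 with r = 0.863 and mca-2, a plasma membrane calcium pump, with r = 0.861. The closest to tre-1 was bath-28 with r = 0.888, to tre-2 gly-12 with r = 0.885, to tre-3 F58B4.5 with r = 0.914 and to tre-4 cars-2 with r = 0.951. The second of each pair was pgp-12 for tre-1, F25E5.5 for tre-2, tatn-1, a tyrosine aminotransferase, for tre-3 and natc-1 for tre-4. Over all these pairs Spearman rho ran from 0.643 for tps-1 with suco-1 to 0.958 for gob-1 with F56D1.1. The next lowest was 0.748 for tre-2 with F25E5.5.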

How the data were processed

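For each of the 12 libraries, 4 per group, the authors deposited a table of raw read counts by gene. The submitters' processing notes list HTSeq, edgeR and Bowtie 1.2.2. Neither build nor annotation is named (not given in the sources used here), and coordinates are left out. The authors also deposited log2 fold changes, p-values, false discovery rates and a test score (an F statistic) for 12395 genes, set beside the values here and entering no test. Library sizes leave out the 5 summary entries; their shares of all reads were at most 4.60% in no feature, 8.45% ambiguous and 39.8% not aligned. No 2 libraries were identical. Names came from the authors' table and Ensembl 115.

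Tests used edgeR 4.0.16 in R 4.3.3 (TMM, filterByExpr, 14664 genes kept, robust quasi-likelihood fit of all 12 libraries without a replicate term, Benjamini-Hochberg over all genes, threshold 0.05, two-sided). SE is the absolute log2 fold change over the square root of F. Log2 CPM used a prior count of 2. DESeq2 1.42.0 was an alternative. Fits were run on simulated data with the spread of the blocked fit and no replicate effect. The main unblocked fit was thus not checked under the spread of these data. Per the labels these are biological replicates, with no statement that equal numbers share a day. Deviations from the group means of same-numbered libraries, over 9898 genes, correlated at 0.209 to 0.701 between daf-2 RNAi and empty vector, at 0.187 to 0.715 between pitr-1 RNAi and empty vector, and at 0.607 to 0.767 between the RNAi groups. All exceeded 0.1, so blocked values (replicate number as a term) are given where they matter, with a pairing taken from the data. Libraries of unlike number ran from negative values to higher ones. daf-2 RNAi replicate 1 was at -0.697 with empty vector replicate 2 and 0.697 with replicate 3, against 0.362 with replicate 1. pitr-1 RNAi replicate 1 was at 0.594 with empty vector replicate 3, against 0.325 with replicate 1. Equal number was thus not the closest match for every library. Blocking lowered the common biological coefficient of variation from 0.367 to 0.240.

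The 8 members and all gene lists were chosen with earlier results of these data known. Named were all members, genes of the pathway lists in a fixed order and the 2 genes most like each member. Of the listed genes, ugp-1 matched no name and gpd-2 had no counts.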

Additional observations from a re-analysis of the deposited data

Results flagged for a closer look

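In each group of 4 libraries, the gap between the highest or lowest library and the nearest other, divided by the range, was set against Dixon's 95% critical value of 0.829 for the 8 genes and for the ratio of synthase to trehalase level. Of 27 groups, 3 exceeded it, and chance flags about 1 in 20 groups. The groups are not independent, since the genes share libraries and the ratio is built from the same genes. The count is thus no test of an excess. tre-3 in daf-2 RNAi had a gap of 0.863, with replicate 4 at 56.2 CPM against 33.3 to 36.4 CPM in the others. tre-3 in pitr-1 RNAi had a gap of 0.925, with replicate 1 at 29.6 CPM against 39.6 to 40.4 CPM. That replicate had the fewest gene counts of all libraries, 5907286, with 39.8% of reads not aligned and 113 counts for tre-3. The part of depth in this gap was not tested. The ratio of synthases to trehalases in empty vector had a gap of 0.918, with replicate 2 at 0.502 against 0.381 to 0.391.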

How the results depend on the processing

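All 24 fold changes of the members stayed uncalled under every alternative run except that of tre-5 for daf-2 RNAi. It passed 0.05 in 2 of 552 values, DESeq2 with the block and the blocked fit without replicate 1. Neither of these was planned, nor were the other blocked fits with libraries left out. No alternative called more than 181 genes for daf-2 RNAi. In 60 of the 552 the sign changed; tps-1, tre-3 and tre-5 kept theirs for daf-2 RNAi. Counts of genes called over the whole table depend on the processing, in the order daf-2 RNAi, pitr-1 RNAi and daf-2 against pitr-1 RNAi from 5, 1 and 2. They were 50, 1 and 22 with DESeq2, 13, 1 and 6 with no filter, 4, 1 and 0 with only the compared groups, 46, 1 and 22 with the replicate block, 176, 8 and 87 with DESeq2 and the block (members called 1, 0 and 0), 0, 0 and 0 with the 3 libraries of highest pos-1 left out, 15, 4 and 25 in replicates 2 and 4 and 0, 0 and 0 in replicates 1 and 3. The blocked fit with those 3 libraries left out called 5 for daf-2 against pitr-1 RNAi. Leaving out 1 library, or 1 replicate number in the blocked fit, called 0 to 181, 0 to 31 and 0 to 80 genes, and 0 to 1 members for daf-2 RNAi. By replicate number, 3901 genes were called, 2412 with those 3 libraries left out (members 0) and 1846 to 4017 (members 0 to 1) without 1 number. The cause of these shifts was not tested.

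Log2 fold changes of changed sign, none of them called, were as follows. For daf-2 against pitr-1 RNAi, tre-1 was -0.0060 with median ratio size factors, -0.0070 with DESeq2 and -0.00072 with DESeq2 and the block. With the 3 libraries of highest pos-1 left out, gob-1 was -0.050 for daf-2 RNAi, and tps-1 -0.053, tps-2 -0.0020 and tre-2 -0.013 for daf-2 against pitr-1 RNAi, or -0.061 for tps-1 and -0.011 for tre-2 with the block. In replicates 2 and 4, tps-2 was 0.050, gob-1 -0.075 and tre-1 -0.043 for daf-2 RNAi, tre-1 -0.0049 and tre-4 0.26 for pitr-1 RNAi, and gob-1 -0.039, tre-1 -0.038 and tre-2 -0.11 for daf-2 against pitr-1 RNAi. In replicates 1 and 3, tre-2 was -0.037 and tre-4 -0.0038 for daf-2 RNAi, and tre-2 -0.21 for pitr-1 RNAi. With 1 library or number left out, the ranges for daf-2 RNAi were -0.16 to 0.085 for tps-2, -0.058 to 0.095 for gob-1, -0.063 to 0.12 for tre-1 and -0.045 to 0.098 for tre-2. For pitr-1 RNAi they were -0.090 to 0.20 for tps-1, -0.18 to 0.071 for gob-1, -0.041 to 0.10 for tre-1, -0.10 to 0.11 for tre-2 and -0.64 to 0.15 for tre-4. For daf-2 against pitr-1 RNAi they were -0.025 to 0.23 for tps-1, -0.056 to 0.19 for gob-1, -0.034 to 0.055 for tre-1, -0.064 to 0.12 for tre-2 and -0.083 to 0.21 for tre-3. The block changed no call of a member in edgeR with all 12 libraries. tre-4 had as few as 10 counts in a library; how far depth limits its values was not tested.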
